A study of Mus musculus with 14 samples.

Results

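The 35 genes described here carry out MHC class I and class II antigen presentation or are part of the interferon response. They were chosen by name, with earlier results of these data known. The estimated counts of their RefSeq transcripts were summed for each mouse gene symbol. All 35 were measured, among 21431 named genes and 30436 features in all, and all 35 were among the 12300 features that passed the filter on low counts. They comprise 10 genes of class I presentation, 6 of class II presentation, 4 regulators of interferon signalling, 10 interferon-induced antiviral genes and 5 interferon-induced GTPases. The mouse MHC lies on chromosome 17, as do 11 of the 35 genes.

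RNA was sequenced from 14 liver samples of male mice of the inbred strain C3HeB/FeJ, in which liver tumours arise spontaneously, and all samples were taken at 18 months of age. There were 6 tumours labelled Grow, 4 tumours labelled Regress and 4 samples of normal liver, and the labels do not say how growth or regression was scored. The mice had been examined for tumours at 10 months and then injected on 5 days of every 28 for 6 cycles. Grow 1 and 5 had received DMSO, Grow 2, 3 and 4 had received SAHA (suberoylanilide hydroxamic acid, which inhibits histone deacetylases) at 85 mg/kg with TMZ (the DNA-alkylating drug temozolomide) at 22 mg/kg, and Grow 6 had received SAHA alone at 100 mg/kg. Regress 1 and 3 had received TMZ alone at 31 mg/kg, Regress 2 phosphate citrate buffer and Regress 4 DMSO. All 4 normal livers had received buffer, and since no Grow tumour had, tumour growth and the solvent or drug cannot be told apart in that comparison.

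Library totals lay between 4707063 and 13394301 estimated counts, which limits the precision of the low genes. Levels are given as counts-per-million values (CPM) scaled by TMM, the normalization of edgeR. Hepatocyte markers were abundant in every library, their 8 genes summing to 40340 to 234900 CPM in Grow tumours, 75850 to 169500 CPM in Regress tumours and 53680 to 81610 CPM in normal livers. Regress 2 and Normal 4 have 1 sample code between them, and the labels do not say whether samples came from separate mice, so p-values measure only the spread between these samples. Grow 3 and Grow 4 were the most alike libraries, with a correlation of 0.979 over log2 CPM, and yet differed by more than sampling noise. Libraries also differed in how expression depended on transcript length, by -0.14 to 0.42 in Grow tumours, -0.48 to 0.39 in Regress tumours and -0.26 to 0.45 in normal livers on the log2 scale per doubling of length. Because tissue was sequenced in bulk, fewer cells of a type and less RNA per cell cannot be told apart.

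Class I molecules, a heavy chain such as H2-K1 or H2-D1 bound to beta-2 microglobulin, show peptides made by the proteasome inside the cell to CD8 T cells, and hepatocytes carry them at low levels. Class II molecules show peptides from outside the cell to CD4 T cells and are made mainly by professional antigen-presenting cells such as dendritic cells, B cells and macrophages, which in the liver include Kupffer cells. Interferon gamma acts through its receptor and induces the regulators Irf1, Ciita and Nlrc5, while type I interferons act through STAT2 and IRF9 on genes with antiviral roles. C3H mice carry another MHC haplotype than the C57BL/6 reference, and H2 genes have near-identical copies, as have the Ifit, Oas1 and Gbp families, so the level of a single member of these families is uncertain.

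Promoter stretches show short motifs for which these gene groups are known, and the genes are described below by the same groups. Whether fold changes go with the motifs was not tested. A RefSeq table of build GRCm38.p6 held promoters, from 250 bases before to 50 bases after the start site, for 28 of the 35 genes. An ISRE motif, a target of IRF factors (searched on both strands as 2 copies of GAAA parted by any 2 bases), occurred in 12 of the 28, against 3.99% of 27025 genes in the table. It occurred in 6 of 9 antiviral genes and in 4 of 4 GTPases. A GAS motif, known from genes induced by interferon gamma (TTCNNNGAA on both strands, which reads the same on each), occurred in 6 of the 28 against 9.55% of all genes. The Y box of MHC promoters, searched as CTGATTGG on both strands, occurred in 6 of the 28 against 4.70% of all genes, namely H2-D1, H2-K1, Psmb9, Tap1, H2-Aa and H2-Eb1. Tap1 and Psmb9 lie head to head, and their windows share 275 bases. In Bst2 the GAS and ISRE matches overlapped. Capitals mark the Y box in the H2 genes, the GAS motif in Irf1 and the ISRE motif in the others, and Igtp also holds a GAS match, left in lower case.
H2-Aa: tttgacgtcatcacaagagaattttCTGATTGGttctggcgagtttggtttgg
H2-Eb1: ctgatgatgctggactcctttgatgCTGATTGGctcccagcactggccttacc
Irf1: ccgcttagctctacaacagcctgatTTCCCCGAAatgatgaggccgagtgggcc
Isg15: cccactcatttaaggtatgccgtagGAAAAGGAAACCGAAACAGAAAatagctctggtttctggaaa
Ifit1: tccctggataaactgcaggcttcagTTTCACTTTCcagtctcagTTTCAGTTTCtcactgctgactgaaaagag
Ifit3: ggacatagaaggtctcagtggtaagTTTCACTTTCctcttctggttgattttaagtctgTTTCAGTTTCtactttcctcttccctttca
Gbp2: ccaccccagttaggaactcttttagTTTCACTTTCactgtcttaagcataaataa
Igtp: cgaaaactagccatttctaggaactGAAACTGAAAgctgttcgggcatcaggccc
The stretches run 5′ to 3′ on the strand of the gene. They lie at chr17:34287847-34287899, minus strand, for H2-Aa, at chr17:34305780-34305832, plus strand, for H2-Eb1, and at chr11:53769899-53769952, plus strand, for Irf1. Those of the antiviral genes lie at chr4:156200855-156200921, minus strand, for Isg15, at chr19:34640760-34640833, plus strand, for Ifit1, and at chr19:34583348-34583436, plus strand, for Ifit3. The GTPase stretches lie at chr3:142620579-142620633, plus strand, for Gbp2, and at chr11:58199497-58199551, plus strand, for Igtp. Isg15 held 3 overlapping ISRE matches, the first starting 78 bases before the start site, and Ifit1 and Ifit3 held 2 each. In H2-Aa and H2-Eb1 the Y box began 51 and 62 bases before the start site. A match is a run of letters and does not show that a factor was bound in these livers.

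Class II genes and several antiviral genes stood higher in most tumours than in most normal livers, but the libraries of each group spread widely and none of the 35 genes passed the test. In tumours against normal liver, with the tumour effect taken as the average of those of Grow and Regress, class II genes had a median log2 fold change of 0.89 with 6 of 6 positive. Antiviral genes had a median of 0.71 with 9 of 10 positive, class I genes one of 0.16, GTPases one of 0.02 and the 4 regulators one of -0.26. The median was 0.24 over the 35 genes and 0.01 over all 12300 features. These medians moved with single libraries. The class II median was 0.46 without Regress 4 and 1.22 without Normal 1, with 6 of 6 positive whichever library was left out, and the antiviral median was 0.48 without Regress 3 and 0.93 without Normal 1. Over the 35 genes it was 0.59 without Normal 1, 0.14 without Normal 3 and 0.15 without Normal 4. Class I genes had 0.28 without Normal 1 and 0.25 without Regress 1, and the GTPases had no settled sign, from -0.24 without Normal 3 to 0.37 without Normal 1. Grow and Regress tumours were set against the same 4 normal livers, so their comparisons are not separate evidence. In Grow against Normal the medians were 1.00 for class II, 0.56 for antiviral genes and 0.28 for all 35, beside 0.00 for all features. With 1 library left out, the antiviral value in Grow was 0.37 without Normal 4 and 0.88 without Normal 1, and that over the 35 genes 0.17 without Normal 4, 0.43 without Grow 1 and 0.62 without Normal 1. In Regress against Normal the medians were 0.62 for class II, 0.97 for antiviral genes and 0.24 for all 35, beside 0.03 for all features. There the class II median was 0.195 without Regress 4, with 4 of 6 positive, 0.94 without Regress 1 and 1.07 without Normal 1, and the antiviral median was 0.53 without Regress 3. The median of the 35 was 0.09 without Regress 3, 0.15 without Normal 4, 0.39 without Regress 1 and 0.52 without Normal 1.

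At an adjusted p under 0.05 by edgeR's quasi-likelihood test, 0 of the 35 genes were called in tumours against normal liver, where 2.32% of all features were called. The count was also 0 in Grow against Normal, with 1.76% of all features called, and in Regress against Normal, with 0.0244%. DESeq2 called 2 members, Ifit2 and Ifi44, in tumours, 2 members, Ifit2 and Irf7, in Grow tumours and 0 in Regress tumours, where it called 8.58%, 8.24% and 5.79% of all features. limma-voom called 0 members in each, beside 1.03%, 0.732% and 0.0% of all features. At an unadjusted p under 0.05, edgeR gave 6 of the 35 in tumours, 5 in Grow tumours and 4 in Regress tumours, beside 18.0%, 16.6% and 16.2% of all features. These shares are at or below the background. Only Ifit2 had every Grow library above every normal library, an arrangement held by 5.27% of all features. It was lost for Ifit2 with each library's length trend removed. The reverse, every Grow library below, was held by 0 members, beside 4.28%. In Regress tumours 0 members lay wholly above or below the normal livers, beside 2.72% and 3.2% of all features.

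**Figure D1:**
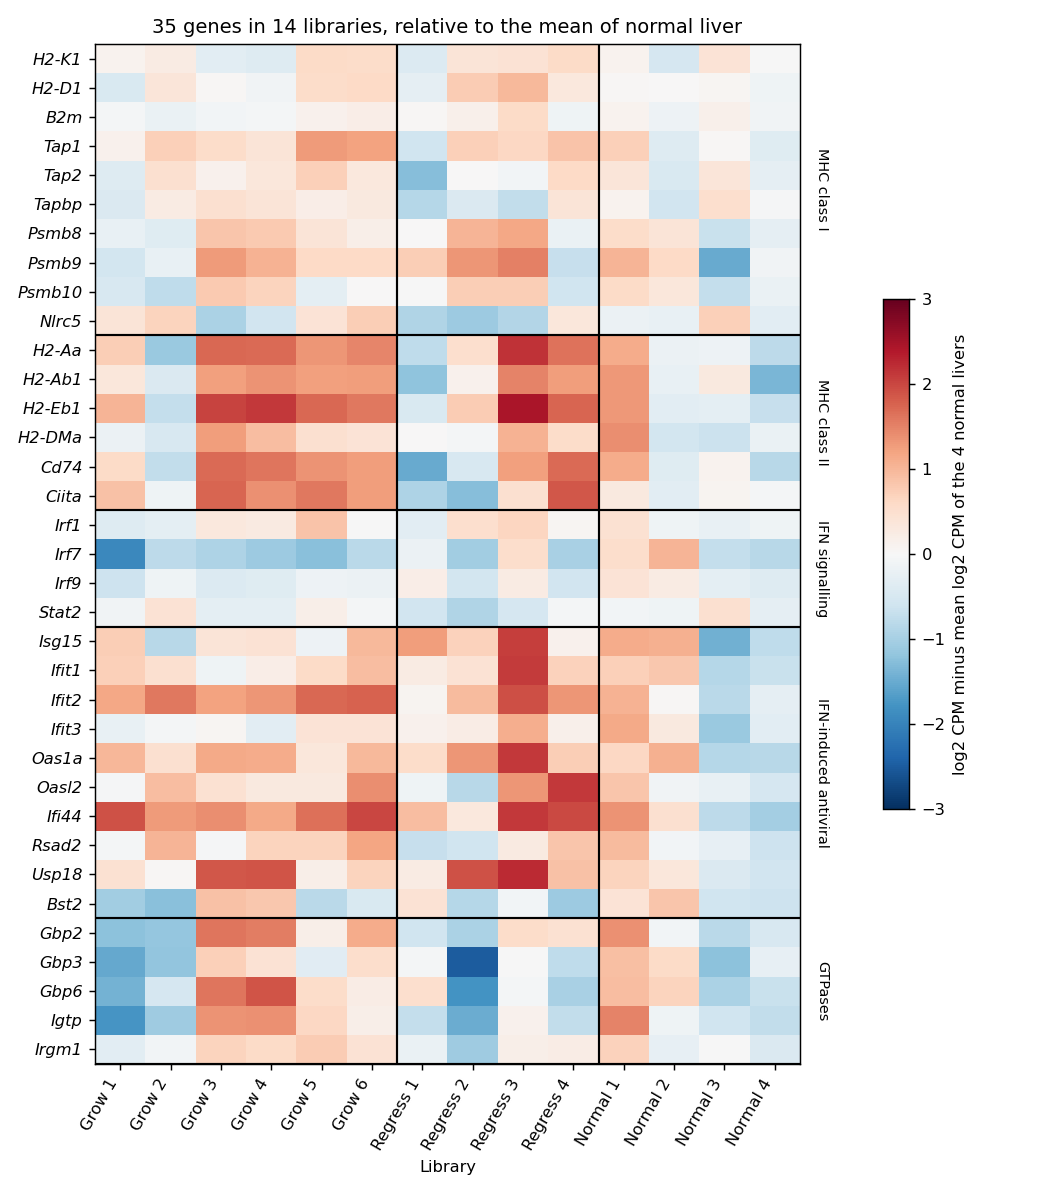
Each cell is the log2 CPM of 1 gene in 1 library minus the gene's mean log2 CPM in the 4 normal livers, with red higher and blue lower; columns are the 6 Grow, 4 Regress and 4 Normal libraries, and black lines part the groups and the gene roles. Class II genes are red in Grow 3 to 6, Regress 3 and 4 and also Normal 1, and 6 of the 10 antiviral genes are highest in Regress 3.

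Per length of transcript, B2m was the most abundant of the 35 genes in normal liver, at 1559 ± 163 CPM per kb (SD, n = 4), and Ciita the least, at 0.234 ± 0.0495 CPM per kb. Bst2, which tethers viruses to the cell surface, was next at 269.8 ± 134 CPM per kb followed by H2-K1 at 123.5 ± 30.8. In the values per gene that follow, the 3 given for Grow tumours are the lowest, median and highest of 6 libraries, and the 4 given for Regress tumours and for normal livers are libraries 1 to 4 in order. Log2 fold changes are given ± SE with adjusted p from edgeR.

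Class I heavy chains and their light chain did not pass the test in any comparison, and their fold changes were small. H2-K1, a classical heavy chain, stood at 149, 222 and 293 CPM in Grow tumours, 146, 256, 262 and 292 CPM in Regress tumours, and 210.1, 138, 258 and 194 CPM in normal livers. The groups overlapped throughout, and the log2 fold change in tumours was 0.20 ± 0.27 (adjusted p = 0.804, 95% interval -0.37 to 0.77). H2-D1, the other heavy chain measured here, stood at 68.3, 108 and 141 CPM in Grow tumours, 77.4, 158, 182 and 116 CPM in Regress tumours, and 96.2, 94.1, 97.4 and 86.0 CPM in normal livers. Normal livers lay within a narrow span, Regress 2 and 3 were the highest libraries and Grow 1 and Regress 1 the lowest, with a log2 fold change of 0.21 ± 0.27 in Grow (adjusted p = 0.790) and 0.51 ± 0.29 in Regress (adjusted p = 0.420). B2m, the light chain shared by class I molecules, stood at 1154, 1282 and 1522 CPM in Grow tumours, 1368, 1483, 1997 and 1213 CPM in Regress tumours, and 1445, 1207, 1477 and 1233 CPM in normal livers. It had the smallest fold change of the class I genes in tumours, 0.08 ± 0.22 with an interval of -0.40 to 0.56, and Regress 3 was its highest library. With each library's length trend removed, B2m was higher in Normal 3, at 11.7 log2 CPM beside 10.5 in Regress 3.

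Peptide transport and loading genes also overlapped between groups. Tap1 and Tap2 form the transporter that carries peptides into the endoplasmic reticulum, and tapasin, encoded by Tapbp, bridges it to class I molecules. Tap1 stood at 17.4, 24.5 and 38.8 CPM in Grow tumours, 10.2, 26.1, 24.2 and 28.6 CPM in Regress tumours, and 25.98, 11.9, 16.1 and 12.2 CPM in normal livers. Grow 5 and 6 were its highest libraries and Regress 1 its lowest, and its log2 fold change in Grow was 0.71 ± 0.34 (adjusted p = 0.309). Tap2 ranged over 23.6 to 50.4 CPM in Grow tumours, 12.6 to 46.6 CPM in Regress tumours and 22.4 to 39.5 CPM in normal livers, with a log2 fold change of 0.09 ± 0.29 in tumours. Tapbp ranged over 60.7 to 115 CPM in Grow tumours, 45.7 to 107 CPM in Regress tumours and 55.2 to 116 CPM in normal livers, and its log2 fold change in tumours was -0.10 ± 0.26. Regress 1 had the lowest level of each of the 3 genes over all 14 libraries.

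Nlrc5, the activator of class I genes, stood at 7.57, 19.9 and 25.1 CPM in Grow tumours, 7.88, 6.92, 7.98 and 18.9 CPM in Regress tumours, and 13.2, 12.8, 24.8 and 12.1 CPM in normal livers. Regress 1 to 3 and Grow 3 and 4 were low and Regress 4 was at the level of the higher Grow libraries, and the log2 fold change was 0.17 ± 0.39 in Grow (adjusted p = 0.894) and -0.58 ± 0.43 in Regress (adjusted p = 0.537). Nlrc5 has the longest transcript of the 35 genes, 6945 bases, and these 5 low libraries were among those with a negative slope on length, between -0.48 and -0.12. With each library's length trend removed, the Nlrc5 range among Regress libraries narrowed to 0.39 from 1.41 on the log2 scale.

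The inducible proteasome subunits, which replace constitutive ones and alter the peptides made for class I, varied widely within each group. Psmb8 stood at 32.7, 51.6 and 75.4 CPM in Grow tumours, 42.5, 85.8, 94.5 and 37.0 CPM in Regress tumours, and 62.0, 55.2, 26.6 and 35.1 CPM in normal livers. Psmb9 stood at 12.5, 28.1 and 45.1 CPM in Grow tumours, 31.3, 46.9, 53.6 and 11.4 CPM in Regress tumours, and 37.9, 28.4, 6.28 and 17.2 CPM in normal livers. Psmb10 stood at 21.2, 33.0 and 62.7 CPM in Grow tumours, 36.0, 60.7, 60.3 and 24.0 CPM in Regress tumours, and 53.7, 46.2, 22.0 and 31.6 CPM in normal livers. For each of them Grow 3 and 4 and Regress 2 and 3 were high and Regress 4 was among the lower libraries, the groups overlapped, and log2 fold changes in tumours were 0.40 ± 0.33, 0.50 ± 0.48 and 0.13 ± 0.35 (adjusted p = 0.632, 0.698 and 0.931). These transcripts are short, and Regress 4, Grow 2 and Normal 3, where they were low, had the steepest positive length slopes of their groups, 0.39, 0.42 and 0.45.

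Setting each inducible subunit against the constitutive subunit it replaces compares them within 1 library. The log2 ratio of Psmb9 to Psmb6, per transcript length, was -3.76, -2.34, -2.51, -2.59, -2.01 and -2.60 in Grow 1 to 6, -3.69, -2.79, -2.66 and -3.10 in Regress 1 to 4, and -2.91, -3.82, -4.003 and -3.77 in Normal 1 to 4. Grow 2 to 6 lay above every normal liver, and Grow 1 lay among the normal livers. The mean was -2.63 ± 0.59 in Grow tumours (SD, n = 6) and -3.62 ± 0.49 in normal livers (n = 4), a difference of 0.99 with an exact permutation p of 0.0286, which is 0.129 when adjusted over the 9 ratio comparisons. Either subunit can move this ratio. Psmb9 alone had a log2 fold change of 0.32 ± 0.51 in Grow. Psmb6 averaged 101 ± 39.7 CPM in Grow tumours and 151 ± 73.5 CPM in normal livers. For Psmb8 to Psmb5 the mean was 0.14 ± 0.28 in Grow tumours and -0.42 ± 0.34 in normal livers, a difference of 0.56 (exact permutation p = 0.0190, adjusted p = 0.129). Psmb10 to Psmb7 differed by 0.26 in the same comparison (exact permutation p = 0.138, adjusted p = 0.257). None of the 9 comparisons passed the adjustment, where two-sided tests that involve Grow can reach 0.0048 at best and those of Regress against Normal 0.0286. Without Grow 1 the Psmb9 to Psmb6 difference was 1.22 in Grow against Normal and -0.65 in Regress against Grow, each with an adjusted p of 0.0357.

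**Figure D2:**
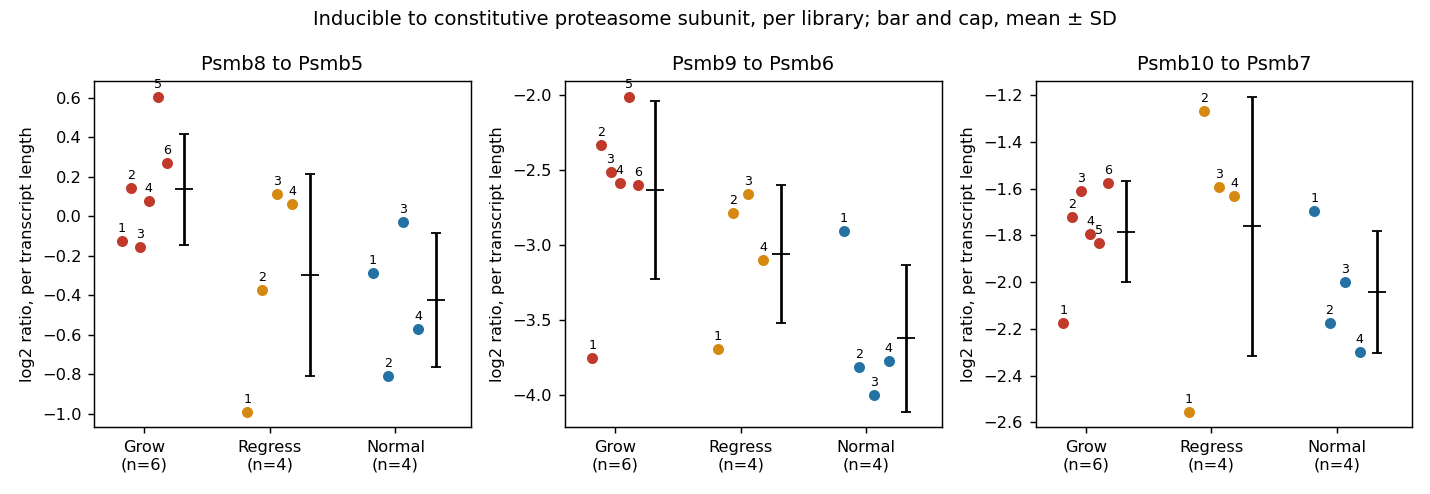
Points are the log2 ratio of an inducible to its constitutive proteasome subunit, per transcript length, in each library of Grow, Regress and Normal, numbered by replicate, with the mean and SD beside them. In the middle panel Grow 2 to 6 lie above the 4 normal livers, and Grow 1, at -3.76, lies among them.

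Class II genes spread widely among tumours, with a median range between the lowest and highest library of 2.15 on the log2 scale in Grow, 2.91 in Regress and 1.97 in normal livers. Cd74, the invariant chain that escorts class II molecules, stood at 42.3, 174 and 228 CPM in Grow tumours, 24.4, 50.4, 166 and 231 CPM in Regress tumours, and 152, 54.5, 75.5 and 39.6 CPM in normal livers. Grow 3 to 6, Regress 3 and 4 and Normal 1 were high, while Grow 2, Regress 1 and 2 and Normal 4 were low, and the log2 fold change in tumours was 0.76 ± 0.57 (adjusted p = 0.579). H2-Eb1, a beta chain of class II, stood at 8.05, 42.6 and 59.4 CPM in Grow tumours, 9.65, 22.7, 74.2 and 45.3 CPM in Regress tumours, and 33.5, 10.7, 10.8 and 8.15 CPM in normal livers. Its log2 fold change was the largest of the class II genes in tumours, 1.29 ± 0.58 (adjusted p = 0.257, 95% interval 0.05 to 2.54). Grow 3 to 6 and Regress 3 and 4 lay above all normal livers, Regress 1 lay among the 3 lower ones, and Grow 2 was the lowest of all libraries.

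H2-Aa, an alpha chain, stood at 6.66, 39.5 and 49.6 CPM in Grow tumours, 8.67, 21.1, 67.2 and 46.4 CPM in Regress tumours, and 32.6, 13.1, 13.3 and 8.44 CPM in normal livers. Its partner H2-Ab1 stood at 3.87, 12.9 and 14.2 CPM in Grow tumours, 2.17, 5.93, 15.4 and 13.3 CPM in Regress tumours, and 13.7, 4.55, 6.58 and 1.89 CPM in normal livers. Both had the same high and low libraries as Cd74 except that Grow 1 and Regress 2 lay in between, and their log2 fold changes in tumours were 1.07 ± 0.56 (adjusted p = 0.358) and 0.57 ± 0.53 (adjusted p = 0.690). Ciita, the master activator of class II genes, stood at 1.24, 3.85 and 5.30 CPM in Grow tumours, 0.591, 0.395, 2.06 and 5.78 CPM in Regress tumours, and 1.75, 1.05, 1.49 and 1.31 CPM in normal livers. In 5 of 6 Grow tumours it exceeded every normal liver, as it did in Regress 3 and 4, and Regress 1 and 2 lay below every normal liver. The Ciita log2 fold change was 1.36 ± 0.62 in Grow (adjusted p = 0.292) and 0.68 ± 0.67 in Regress (adjusted p = 0.660), and its counts were low, from 2.21 to 41.6 estimated counts in a library. H2-DMa, part of the exchange factor that loads class II, ranged over 1.86 to 6.82 CPM in Grow tumours, 2.57 to 5.92 CPM in Regress tumours and 1.64 to 7.55 CPM in normal livers.

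Markers of antigen-presenting cells varied across the same libraries. The 6 class II genes summed to 169, 63.9, 358, 345, 283 and 271 CPM in Grow 1 to 6, 48.3, 103, 331 and 346 CPM in Regress 1 to 4, and 241, 85.7, 109 and 61.7 CPM in Normal 1 to 4. Markers of recruited monocytes and macrophages, 8 genes measured, summed to 236, 87.8, 393, 390, 151 and 259 CPM in Grow 1 to 6, 342, 194, 676 and 556 CPM in Regress tumours and 344, 224, 58.0 and 112 CPM in normal livers. Regress 3 and 4, Grow 3 and 4 and Normal 1 were high for both sums, whereas Regress 1 was high for the monocyte markers and lowest for class II, and Grow 5 was high for class II with a low monocyte sum. Lyz2, a lysozyme of myeloid cells, carried much of that sum, with 309.5 CPM in Regress 1 and 317 CPM in Normal 1. In Regress 4 it stood at 218 CPM beside 217 CPM of Gpnmb, a glycoprotein of lipid-laden macrophages, which was at 0.394 CPM in Regress 1. Kupffer cell markers, 10 genes, summed to 98.1, 406 and 526 CPM in Grow tumours, 401, 313, 959.7 and 335 CPM in Regress tumours and 1125, 506, 389 and 385 CPM in normal livers. Normal 1, the normal liver with the most class II, had the highest Kupffer sum of all libraries.

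Monocyte markers had positive log2 fold changes for 8 of 8 genes in tumours and Kupffer markers negative ones for 8 of 10. By edgeR 0 of either were called, beside 2.32% of all features. At an unadjusted p under 0.05 stood 5 and 3 of them, beside 18.0% of all features. B cell markers summed to 10.7, 19.9 and 30.2 CPM in Grow tumours, 23.1, 56.0, 43.5 and 46.4 CPM in Regress tumours and 21.1, 26.1, 5.53 and 12.8 CPM in normal livers, with Pax5 under 1 CPM everywhere. Dendritic cell markers summed to between 5.55 and 10.7 CPM in Grow tumours, 4.94 and 13.0 CPM in Regress tumours and 2.76 and 5.97 CPM in normal livers, and Flt3, Ccr7 and Siglech stayed under 1 CPM. The 7 T cell markers summed to at most 8.76 CPM in any library, and the NK cell marker Klrb1c was at 0 everywhere. The part of these cells in the class II levels was not tested.

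**Figure D3:**
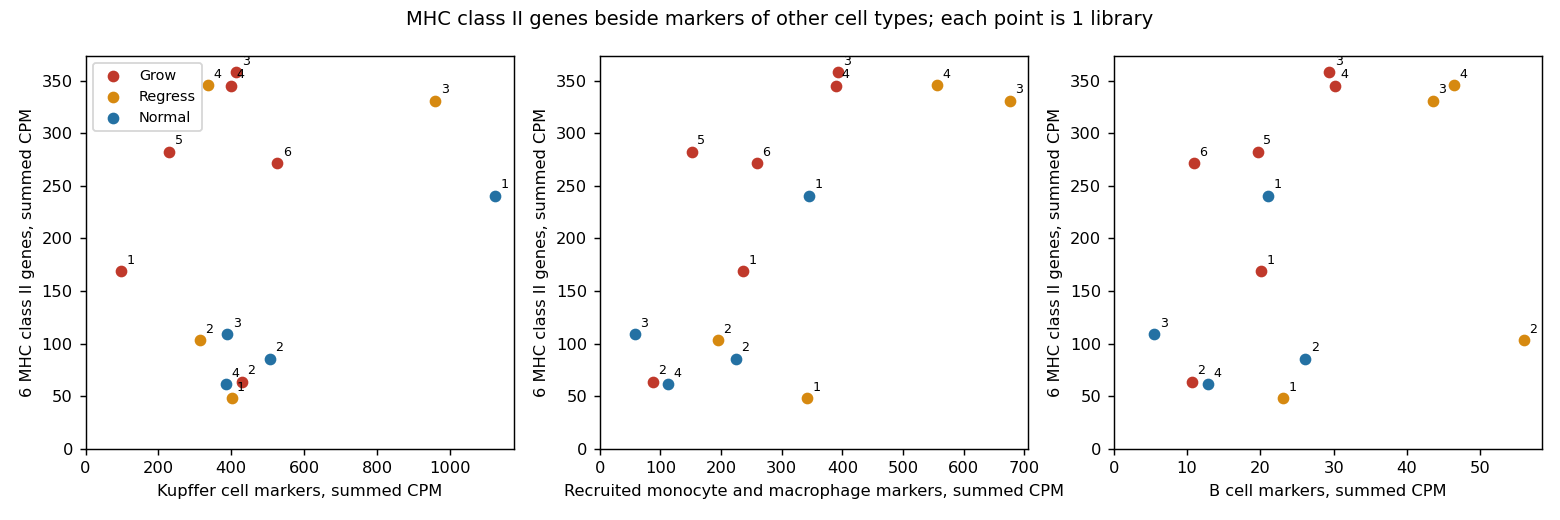
Each point is 1 library, numbered by replicate and coloured by group, with the summed CPM of the 6 class II genes on the vertical axis and the summed CPM of Kupffer cell, recruited monocyte or B cell markers on the horizontal axis. Normal 1, at 1125 CPM of Kupffer markers, stands apart from the other normal livers in class II as well, and Regress 1, at 342 CPM of monocyte markers, has the lowest class II sum.

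Of the 4 regulators of interferon signalling none passed the test, and Irf7 had the largest fold change. Irf7, which drives type I interferon production and is itself induced by it, stood at 21.1, 40.4 and 47.1 CPM in Grow tumours, 72.3, 39.1, 118 and 41.2 CPM in Regress tumours, and 118, 164, 49.8 and 45.8 CPM in normal livers. Grow tumours lay near the level of Normal 3 and 4 or below it, as did Regress 2 and 4, while Normal 1 and 2 and Regress 3 were the 3 highest libraries. The log2 fold change was -1.30 ± 0.40 in Grow (adjusted p = 0.0996, 95% interval -2.16 to -0.44) and -0.48 ± 0.45 in Regress (adjusted p = 0.641). Irf1, the early regulator induced by interferon gamma, stood at 25.0, 35.8 and 59.1 CPM in Grow tumours, 26.2, 46.1, 51.0 and 33.9 CPM in Regress tumours, and 45.1, 29.96, 27.9 and 29.97 CPM in normal livers. All groups overlapped, with a log2 fold change of 0.20 ± 0.26 in tumours (adjusted p = 0.798). Irf9 and Stat2, partners in the type I interferon complex, had log2 fold changes of -0.25 ± 0.22 and -0.27 ± 0.21 in tumours, and Stat2 had its lowest values in Regress 1 to 3.

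Among the antiviral genes Ifit2, Ifi44 and Usp18 had the largest fold changes, and are given per library for that reason. Ifit2, which binds viral RNA and limits its translation, stood at 10.2, 12.7 and 15.9 CPM in Grow tumours, 4.73, 8.90, 17.8 and 11.6 CPM in Regress tumours, and 9.48, 4.55, 2.39 and 3.64 CPM in normal livers. Every Grow library lay above every normal liver, and Regress 3 and 4 did as well, whereas Regress 1 and 2 lay among the normal livers. The gap was narrow, with Grow 1 at 10.2 CPM and Normal 1 at 9.48 CPM. With each library's length trend removed, Grow 1 lay below Normal 1, at 3.45 beside 3.48 log2 CPM. The Ifit2 log2 fold change was 1.23 ± 0.38 in tumours (adjusted p = 0.0909), 1.36 ± 0.40 in Grow (adjusted p = 0.0852) and 1.10 ± 0.43 in Regress (adjusted p = 0.217). Without Regress 1 the adjusted p of edgeR was 0.0308 in tumours and 0.0466 in Grow, and with DESeq2 it was 0.0157 and 0.0146. Other settings went the other way. With 1 library left out the adjusted p of edgeR reached 0.277 in tumours and 0.245 in Grow. Without the samples that share a code it was 0.329 and 0.272, and by limma-voom, with all libraries, 0.110 and 0.0846.

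Ifi44, an interferon-induced protein, stood at 12.1, 16.1 and 22.5 CPM in Grow tumours, 10.4, 6.72, 24.2 and 22.1 CPM in Regress tumours, and 14.0, 7.53, 2.99 and 2.47 CPM in normal livers. Normal 1 overlapped the tumours and the other 3 normal livers lay below all Grow tumours, and the log2 fold change in tumours was 1.28 ± 0.46 (adjusted p = 0.146). Usp18, which removes Isg15 from proteins and damps type I interferon signalling, stood at 9.75, 14.2 and 36.2 CPM in Grow tumours, 11.4, 36.4, 45.6 and 17.6 CPM in Regress tumours, and 15.3, 12.1, 7.02 and 6.25 CPM in normal livers. Grow 3 and 4 and Regress 2 and 3 were high and the rest lay close to normal livers, with a log2 fold change of 1.22 ± 0.47 in tumours (adjusted p = 0.179).

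**Figure D4:**
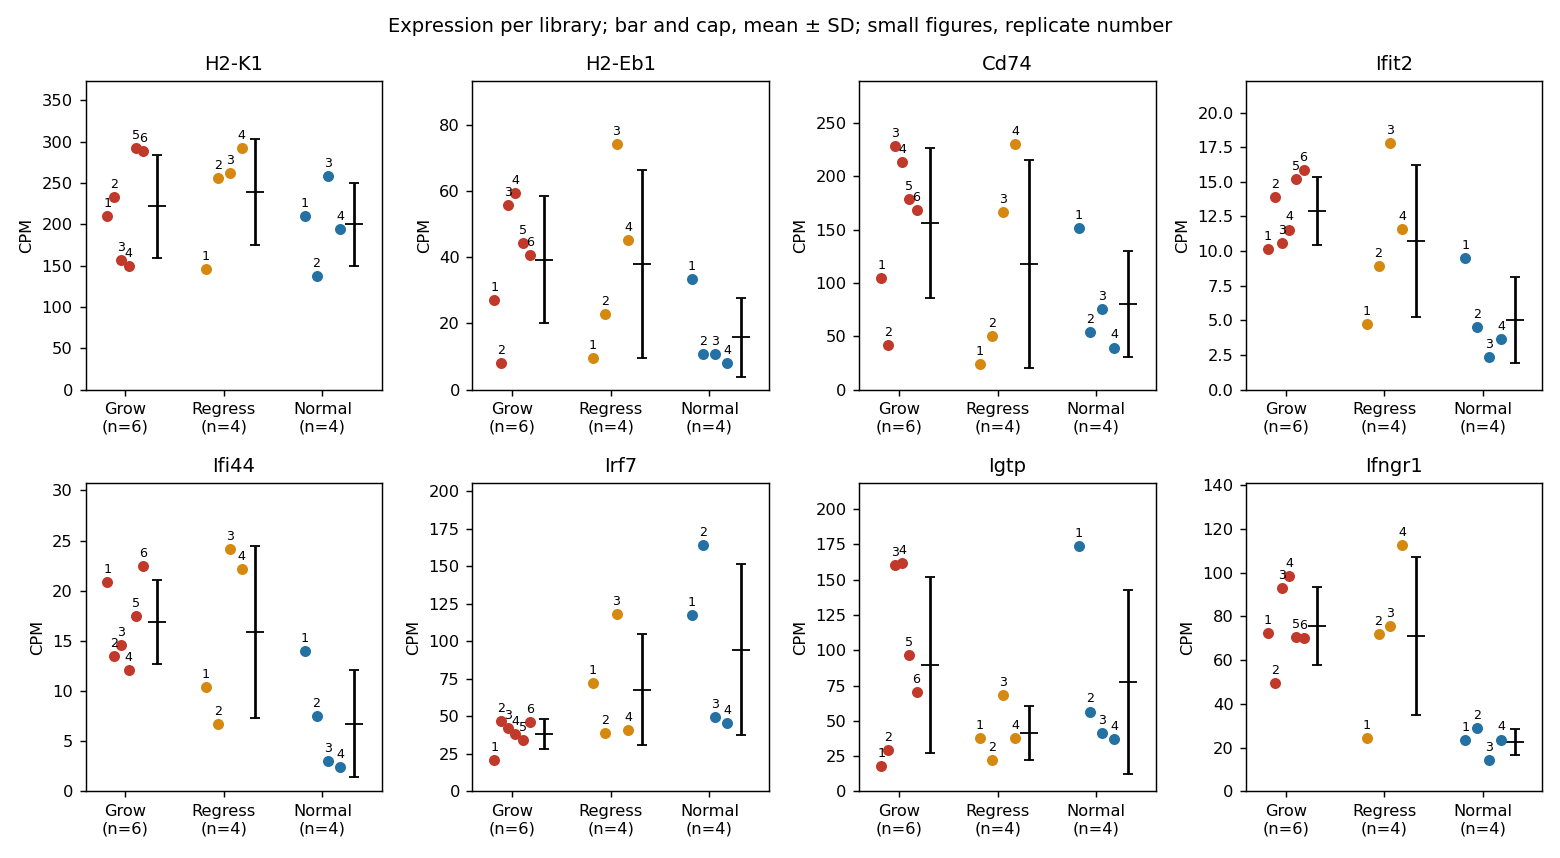
CPM of 8 genes in each library of Grow (n = 6), Regress (n = 4) and Normal (n = 4), with the replicate number over each point and the mean and SD beside each group. Ifit2 and Ifngr1 are the genes here whose 6 Grow libraries all lie above the 4 normal livers, and Regress 1 lies within the normal range for both.

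The other antiviral genes had smaller fold changes. Isg15, a ubiquitin-like modifier, stood at 5.57, 13.7 and 20.3 CPM in Grow tumours, 24.8, 16.6, 43.8 and 11.3 CPM in Regress tumours, and 22.5, 21.9, 3.59 and 5.96 CPM in normal livers. Ifit1, a sensor of foreign RNA caps, stood at 7.32, 11.8 and 15.5 CPM in Grow tumours, 9.65, 11.1, 35.8 and 13.1 CPM in Regress tumours, and 13.5, 14.4, 4.33 and 4.95 CPM in normal livers. Ifit3, which stabilizes Ifit1, stood at 10.5, 13.3 and 17.6 CPM in Grow tumours, 14.6, 15.4, 28.6 and 14.7 CPM in Regress tumours, and 29.5, 16.3, 5.98 and 10.5 CPM in normal livers. In all 3 genes Regress 3 was the highest tumour, Normal 1 and 2 were above Normal 3 and 4, and the log2 fold changes in tumours were 0.41 ± 0.49, 0.61 ± 0.41 and 0.04 ± 0.34 (adjusted p = 0.779, 0.510 and 0.983). Oas1a, an oligoadenylate synthetase that detects double-stranded RNA, and its relative Oasl2 had log2 fold changes of 0.86 ± 0.40 and 0.81 ± 0.51. Rsad2, the antiviral enzyme viperin, had one of 0.25 ± 0.39, and Bst2 one of -0.30 ± 0.45, the lone negative value of the 10. Regress 3 had the highest level of 6 of the 10 antiviral genes and was among the top 3 libraries for 8, and it was the highest of all libraries for 13 of the 35 genes. It also had the most negative slope on length, -0.48. With each library's length trend removed, B2m, Psmb9, H2-Aa and H2-Ab1 were higher in other libraries. The antiviral median of Regress 3 relative to normal liver was then 1.62 on the log2 scale, beside 2.00 before.

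**Figure D5:**
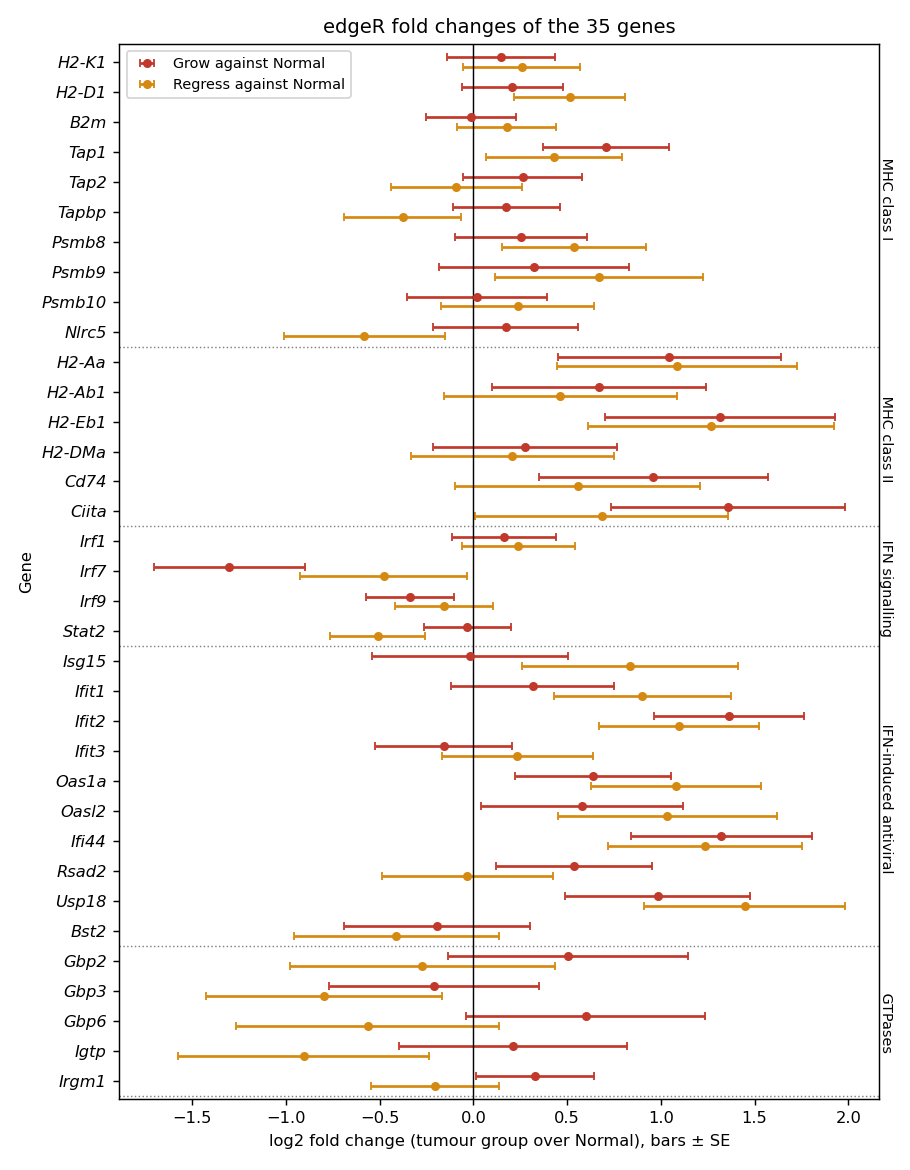
Points are edgeR log2 fold changes of the 35 genes in Grow against Normal (red) and Regress against Normal (orange), with bars of ± 1 SE, and dotted lines part the gene roles. The GTPases lie below 0 in Regress against Normal for all 5 genes (for at least 3 whichever library is left out) and above 0 in Grow against Normal for 4 (3 to 5), and no gene passed an adjusted p of 0.05.

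GTPases of the Gbp and Irg families, which attack vacuoles of intracellular pathogens and are strongly induced by interferon gamma, had the widest spread among Grow tumours, with a median range of 2.82 on the log2 scale against 1.23 over the 35 genes. Gbp2 stood at 2.05, 8.78 and 16.3 CPM in Grow tumours, 3.35, 2.57, 7.72 and 7.20 CPM in Regress tumours, and 13.9, 4.91, 2.84 and 3.64 CPM in normal livers. Igtp, also called Irgm3, stood at 18.1, 83.5 and 162 CPM in Grow tumours, 37.6, 21.9, 68.0 and 37.5 CPM in Regress tumours, and 174, 56.6, 41.1 and 37.2 CPM in normal livers. For both, Grow 3 and 4 and Normal 1 were high, and Grow 1 and 2 and Regress 2 were low. Log2 fold changes in Grow were 0.51 ± 0.64 and 0.21 ± 0.61 (adjusted p = 0.786 and 0.918), and those in Regress -0.27 ± 0.71 and -0.91 ± 0.67 (adjusted p = 0.872 and 0.538). Gbp3, Gbp6 and Irgm1 had log2 fold changes of -0.50, 0.02 and 0.06 in tumours. Removing the length trend left the spread of the GTPases at a median of 2.78 in Grow tumours.

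Regress against Grow compares the tumours by their labelled course. Of the 35 genes 0 were called by edgeR, as were 0.0% of all features, with 0 members at an unadjusted p under 0.05 beside 10.0% of all features, and DESeq2 and limma-voom called 0 members as well, beside 0.252% and 0.0% of all features. Without Regress 4, edgeR called 1249 features and 1 member, Tapbp, at -0.90 (adjusted p = 0.0488), where Tapbp had -0.55 with all libraries. GTPases were the group with 1 sign throughout, 5 of 5 negative whichever 1 library was left out. Their median log2 fold change was -0.78, and -0.52 without Grow 3, beside -0.07 over the 35 genes and -0.01 over all features. Grow 3 and 4, the most alike libraries, were both high for GTPases, and no fit left out both. Relative to normal liver, the GTPase median was 1.36 and 1.37 there on the log2 scale, and -1.41, -1.07, 0.55 and 0.44 in Grow 1, 2, 5 and 6. With Grow 3 and 4 summed, the median of Regress against Grow was -0.54. Gbp6 had -1.16 ± 0.66 (95% interval -2.57 to 0.24) and Igtp -1.12 ± 0.63 (95% interval -2.46 to 0.23). Antiviral genes had a median of 0.42, class I genes 0.15, the regulators 0.13 and class II genes -0.14. With each library's length trend removed, these medians were 0.19, -0.17, 0.07 and -0.29 in the same order. They also rested on single libraries. Without Regress 3 the antiviral median was 0.0015, that of class I 0.04, that of the regulators -0.02 and that of class II -0.58, and without Regress 1 the class II median was 0.09. No member had every Regress library above or below every Grow library, beside 0.374% and 0.545% of all features.

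Among 75 other tested genes of the same pathways, which come from lists drawn up for this work, edgeR called 1 in tumours against normal liver, beside 1.59% of all features called as higher, the same 1 in Grow against Normal, beside 1.12%, and 0 in Regress against Normal. It was Ifngr1, which encodes the ligand-binding chain of the interferon gamma receptor. Ifngr1 stood at 49.7, 71.4 and 98.6 CPM in Grow tumours, 24.4, 71.8, 75.7 and 113 CPM in Regress tumours, and 23.5, 28.9, 14.5 and 23.7 CPM in normal livers. Every Grow library lay above every normal liver, as did Regress 2 to 4, and Regress 1 lay among the normal livers. Ifngr1 rose in tumours by a log2 fold change of 1.69 ± 0.35 (adjusted p = 0.0290) and in Grow tumours by 1.74 ± 0.36 (adjusted p = 0.0334), while the value in Regress tumours was 1.65 ± 0.38 (adjusted p = 0.0642). The call was lost when any 1 normal liver was left out, with an adjusted p of 0.0575 to 0.117 in tumours and 0.0754 to 0.102 in Grow, and in Grow also when any of Grow 1, 3, 4, 5 or 6 was left out, with 0.0509 to 0.0692. It was also lost without the samples that share a code, at 0.133 in tumours and 0.114 in Grow. The log2 fold change in tumours lay between 1.53 and 1.83 over these settings.

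Ifngr2, the signalling chain of the same receptor, stood at 22.6, 25.9 and 30.1 CPM in Grow tumours, 13.6, 76.3, 78.3 and 31.9 CPM in Regress tumours, and 14.0, 13.3, 15.2 and 18.0 CPM in normal livers. Every Grow library and Regress 2 to 4 lay above every normal liver, with Regress 2 and 3 the highest, and Regress 1 lay among the normal livers. Here the log2 fold change was 1.72 ± 0.41 in Regress (adjusted p = 0.0716) and 0.78 ± 0.38 in Grow (adjusted p = 0.320). Without Regress 1 its adjusted p in Regress against Normal was 0.00348, and that of Ifngr1 was 0.00437. Irf2, a regulator that can repress Irf1 targets, had -0.89 ± 0.37 in tumours (adjusted p = 0.214). Interferon transcripts themselves were near or at the limit of detection. Ifnb1, Ifna4, Ifnl2 and Ifnl3 were at 0 in every library, where the limit of 3 counts is 0.224 to 0.637 CPM from the deepest to the shallowest library, and Ifng reached at most 0.369 CPM, in Grow 6.

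Cxcl9, a chemokine induced by interferon gamma that attracts T cells, stood at 14.9, 56.0 and 92.8 CPM in Grow tumours, 5.71, 33.8, 51.5 and 27.4 CPM in Regress tumours, and 13.0, 20.9, 6.58 and 2.76 CPM in normal livers. Grow 3 to 6 and Regress 2 to 4 lay above all normal livers, and Grow 1 and 2 and Regress 1 lay among them, with a log2 fold change of 1.83 ± 0.65 in tumours (adjusted p = 0.145) and 2.21 ± 0.70 in Grow (adjusted p = 0.107). Cxcl10, a related chemokine, had 1.74 ± 0.57 in Grow (adjusted p = 0.121). The checkpoint ligand Cd274 had -0.30 ± 0.58 in tumours. Iigp1, an Irg GTPase outside the 35 genes, stood at 494, 656 and 1185 CPM in Grow tumours, 642, 566, 1102 and 567 CPM in Regress tumours, and 544, 568, 225 and 339 CPM in normal livers. Normal 3 and 4 were its lowest libraries and Grow 6 its highest, with a log2 fold change of 0.78 ± 0.34 in tumours (adjusted p = 0.233).

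Nonclassical class I genes H2-T23 and H2-Q4 had log2 fold changes of 0.59 ± 0.29 and 0.64 ± 0.27 in tumours. H2-T23, the mouse Qa-1 heavy chain that NK cells read, stood at 204, 245 and 322 CPM in Grow tumours, 229.9, 579, 516 and 222 CPM in Regress tumours, and 243, 215, 161 and 204 CPM in normal livers. Regress 2 and 3 stood above all other libraries. Of 19 further antiviral genes 0 were called in tumours, beside 2.32% of all features. Of these 19, 8 had positive log2 fold changes, with a median of -0.006 beside 0.71 for the 10 antiviral genes above. In Grow against Normal 7 were positive, with a median of -0.21, and in Regress against Normal 12, with a median of 0.11. Oas1g at 1.54 ± 0.60 and Cmpk2 at 0.99 ± 0.46 in tumours were the values with the lowest unadjusted p. Of 11 sensors of nucleic acids 0 were called and 8 had positive log2 fold changes in tumours, with a median of 0.12. Of 9 further GTPases 0 were called, and 5 were positive in tumours, with a median of 0.13. In Grow against Normal 6 were positive, with a median of 0.71, and in Regress against Normal 8 were negative, with a median of -0.52.

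TMZ was compared over 5 tumours that received it, Grow 2, 3 and 4 and Regress 1 and 3, and 5 that did not, with the group as a term. All TMZ-treated Grow tumours also received SAHA, and Grow 6 alone received SAHA without TMZ, so within Grow the drugs are separated by that 1 library only. By edgeR 0 of the 35 genes were called, beside 0.0% of all features, and 2 members stood at an unadjusted p under 0.05, beside 13.9% of all features, while DESeq2 and limma-voom called 0 members, beside 3.77% and 0.0163% of all features. Bst2 was at 81.4, 356 and 340.3 CPM in the treated Grow tumours and 262 and 183 CPM in the treated Regress tumours, against 93.9, 110.3 and 140.4 CPM and 107 and 91.1 CPM in those without. Apart from Grow 2, each treated tumour lay above every untreated one, and the log2 fold change was 1.17 ± 0.40 (adjusted p = 0.229). It was 0.48 with the length trend removed, Bst2 being a short transcript of 792 bases.

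Gbp6 was at 8.67, 38.5 and 46.6 CPM in the treated Grow tumours and 17.7 and 11.8 CPM in the treated Regress tumours, against 4.47, 18.3 and 14.6 CPM and 3.36 and 6.21 CPM in those without. Grow 3 and 4 were the highest, and the log2 fold change was 1.44 ± 0.52 (adjusted p = 0.245). The 5 GTPases were all positive with TMZ, at a median of 0.81, beside 0.03 over the 35 genes and -0.03 over all features. Left out one at a time, libraries moved that median between 0.54, without Regress 2 and with 4 of 5 positive, and 1.08, without Grow 2. Kupffer markers were positive for 9 of 10 genes with TMZ, at a median of 0.74, and hepatocyte markers negative for 7 of 8, at a median of -0.69, with 0 of either called, and their part in the GTPase values was not tested. Without Grow 2, edgeR called 737 features, among them Bst2 and Gbp6, with adjusted p of 0.0282 and 0.0455. No member had every treated library above or below every untreated one, beside 0.78% and 0.967% of all features.

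SAHA was compared within Grow, over Grow 2, 3, 4 and 6 with it and Grow 1 and 5 without. By edgeR 0 of the 35 genes were called, as were 0.0% of all features, with 0 members at an unadjusted p under 0.05 beside 2.64% of all features, and DESeq2 and limma-voom called 0 members too, beside 0.423% and 0.0% of all features. Grow 2, 3 and 4 were treated and Grow 1 and 5 untreated in the TMZ comparison as well, so the drug comparisons are not separate evidence. The 5 GTPases were all positive with SAHA, at a median log2 fold change of 1.17, beside 0.20 over the 35 genes and 0.01 over all features. Without Grow 1 that median was 0.63, with 4 of 5 positive, and without Grow 5 it was 2.47, while the median of the 35 was -0.06 and 0.66 in the same cases. Kupffer markers were positive with SAHA for 10 of 10 genes, at a median of 1.52, with 3 at an unadjusted p under 0.05, and hepatocyte markers negative for 8 of 8, at a median of -0.51, with 0 of either called. Their part in the GTPase values was not tested. Gbp2 was at 2.17, 16.3, 15.7 and 11.6 CPM with SAHA and 2.05 and 5.94 CPM without, which overlap, and its log2 fold change was 1.53 ± 0.84 (95% interval -0.27 to 3.33). Tapbp, Irf7 and Oasl2 had every SAHA library above both others, an arrangement held by 5.85% of all features, and 0 members had the reverse, beside 5.57%. Tapbp was at 97.5, 115, 109 and 101 CPM with SAHA and 60.7 and 94.8 CPM without. Irf7 was at 47.1, 42.5, 38.3 and 46.3 CPM with SAHA and 21.1 and 34.2 CPM without. Oasl2 was at 6.04, 4.29, 3.773 and 8.49 CPM with SAHA and 2.93 and 3.768 CPM without, so Grow 4 and Grow 5 were nearly tied. With only 2 untreated Grow tumours, the interval of each member spans 0.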

How the data were processed

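RNA from 14 mouse liver samples was sequenced with Illumina TruSeq RNA v2 libraries, which keep no strand, after extraction with Qiagen RNeasy, per the labels' protocols. Antisense overlaps can therefore not be told apart. The authors deposited 1 table of estimated counts, not whole numbers, for 35230 transcripts, and 1 further column without values was not used. Salmon 0.3.1, edgeR 3.14.0 and the mouse build mm9 are named in the submitters' processing notes. Neither the annotation, the read length nor the trimming is given in the sources used here. RefSeq GRCm38.p6 named 26081 transcripts, GENCODE 144 more, and the 9005 without a match, 3.52% to 12.1% of a library, were kept as unnamed features. Values of the transcripts of a gene were then added up and rounded to whole numbers. Promoters and their coordinates come from RefSeq GRCm38.p6, another build than mm9.

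Of the features 12300 passed edgeR's filterByExpr. TMM scaling and the quasi-likelihood test of edgeR 4.0.16 (R 4.3.3) were applied in 1 fit over Grow, Regress and Normal. TMZ was a coefficient beside the group, and SAHA was tested with Grow split by SAHA. P-values were Benjamini-Hochberg adjusted over all features, with 0.05 as the threshold, and the biological coefficient of variation was 0.484. SE is the log2 fold change over the square root of F. Log2 CPM used a prior count of 2 and the proteasome ratios a pseudocount of 0.5 with exact permutation tests. Alternatives were DESeq2 1.42.0, limma-voom 3.58.1, relative log expression size factors, no filter on low counts, the replicate number as a block, removal of each library's length trend, each library left out in turn, the samples sharing a code left out, Grow 3 and 4 summed, and a ratio pseudocount of 2. The test was run on simulated data with 200 genes changed. Other steps used Python 3.11.15, numpy 2.4.6, pandas 2.3.3 and matplotlib 3.10.9.

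The 35 genes and all lists were chosen with earlier results of these data known. Values per library were given for called genes and 19 central genes of their roles, and from other lists for called genes and up to 3 per list with the lowest unadjusted p. Ifit2, Ifi44, Usp18, Tap1, Tapbp, Bst2 and Gbp6 among the 35, Cd274 outside them, and the genes of the closing section were picked after their values were seen. Rnf213, Cxcl11 and Cd68 of the lists are not analysed here.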

Additional observations from a re-analysis of the deposited data

Results flagged for a closer look

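In 7 of the 105 combinations of a gene and a group, 1 library stood far from the others of its group by Dixon's criterion, which chance alone gives in about 1 in 20. In class I presentation, Tap1 was at 10.2 CPM in Regress 1 and between 24.2 and 28.6 CPM in the other Regress tumours. Tapbp was at 60.7 CPM in Grow 1 and between 94.8 and 115 CPM in the other Grow tumours. Nlrc5 was at 18.9 CPM in Regress 4, against 6.92 to 7.98 CPM in the other Regress tumours, and at 24.8 CPM in Normal 3, against 12.1 to 13.2 CPM in the other normal livers. H2-Aa, of class II, was at 6.66 CPM in Grow 2 and between 25.0 and 49.6 CPM in the other Grow tumours. The regulator Irf1 was at 45.1 CPM in Normal 1 and between 27.9 and 29.97 CPM in the other normal livers. Ifit3 was at 28.6 CPM in Regress 3 and between 14.6 and 15.4 CPM in the other Regress tumours. Each of the 7 values is in a different library.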

How the results depend on the processing

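Of 132 counts of the 35 genes called under the alternatives, 126 stayed at 0, the count of each comparison by edgeR. DESeq2 called 2 in tumours and 2 in Grow against Normal. With 1 library left out, the count ranged from 0 to 1 in tumours (1 without Regress 1), from 0 to 1 in Grow against Normal (1 without Regress 1), from 0 to 1 in Regress against Grow (1 without Regress 4, Tapbp at -0.90 with adjusted p = 0.0488), from 0 to 2 for TMZ (2 without Grow 2), and was 0 in Regress against Normal and for SAHA. Of 4620 values of single members, 4611 stayed on their side of the threshold, 9 passed it and 273 had the other sign. Of the values of other named genes, 24 passed and 50 no longer passed. The Psmb9 to Psmb6 difference ranged from 0.86 to 1.23 in Grow against Normal and from -0.65 to -0.22 in Regress against Grow with 1 library left out, and passed without Grow 1, at 1.22 and -0.65; the cause was not tested. The other 151 ratio values stayed on their side. Over all features, 285, 217, 3, 0, 0 and 0 were called by edgeR in tumours, Grow, Regress, Regress against Grow, TMZ and SAHA. DESeq2 called 1055, 1014, 712, 31, 464 and 52, limma-voom 127, 90, 0, 0, 2 and 0, and the fit with the length trend removed 664, 541, 153, 0, 79 and 0 of 11421. With 1 library left out the counts ran from 0 to 991, 4 to 651, 0 to 667, 0 to 1249 and 0 to 737, with 0 for SAHA. Without the samples sharing a code they were 0, 18, 0, 0, 0 and 0, and with relative log expression size factors Regress had 35.

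Same-numbered samples of different groups deviated from their group means with correlations of -0.522 to 0.197. Differently numbered samples were not set beside them, so these values cannot decide whether the replicate numbers pair the samples. With the replicate block, 0 of the 35 genes were called in each of the 6 comparisons and 0 features in all, the class II median in tumours was 0.48, and Ifngr1 had an adjusted p of 0.211 in tumours and 0.264 in Grow by edgeR. Library totals of 4707063 to 13394301 counts limit the genes at a few CPM, such as Ciita.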

Other observations

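Endothelial markers were drawn up as a list of cells that a liver sample also holds. In tumours against normal liver 1 of the 6 genes was called, beside 2.32% of all features. It was Lyve1, a hyaluronan receptor of lymphatic and liver sinusoidal endothelium. Lyve1 stood at 7.40, 9.69 and 24.6 CPM in Grow tumours (lowest, median and highest of 6), 1.18, 29.5, 6.44 and 26.2 CPM in Regress tumours and 1.75, 1.23, 0.448 and 2.91 CPM in normal livers. All Grow tumours and Regress 2 to 4 lay above every normal liver, and Regress 1 lay among them. Lyve1 rose in tumours by a log2 fold change of 3.09 ± 0.74 (adjusted p = 0.0443 by edgeR's quasi-likelihood test). The call held without Grow 2 or Regress 1 and was lost with any other 1 library left out, at an adjusted p of up to 0.148, and by limma-voom, at 0.240. The other endothelial markers did not pass, among them Stab2, a scavenger receptor of the sinusoid, at -0.48 ± 0.33, and Pecam1, a junction protein of endothelium, at 0.81 ± 0.34. The 6 genes summed to 88.1, 152 and 256 CPM in Grow tumours, 142, 180, 143 and 158 CPM in Regress tumours and 143, 116, 158 and 164 CPM in normal livers, which overlap.

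Of the 8 hepatocyte markers 1 was called, beside 2.32% of all features. It was Tat, which encodes tyrosine aminotransferase of amino acid breakdown. Tat stood at 269, 429 and 672 CPM in Grow tumours, 261, 635, 371 and 153 CPM in Regress tumours and 1455, 591, 1158 and 1304 CPM in normal livers. Normal 2 overlapped the tumours and the other normal livers lay above all of them. Tat fell in tumours by 1.52 on the log2 scale (SE 0.36, adjusted p = 0.0408 by edgeR). The call held without Grow 2 or Regress 1, 2 or 4 and was lost with any other 1 library left out, at an adjusted p of up to 0.140, and by limma-voom, at 0.0779.

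Further genes of class II processing did not pass the test. Ctss, the protease cathepsin S that trims the invariant chain, had a log2 fold change of 0.05 ± 0.41 in tumours, and Ifi30, a lysosomal thiol reductase, one of -0.18 ± 0.33. Of 6 tested genes of this list 3 were positive, with a median of -0.04 beside 0.89 for the 6 class II genes. Constitutive proteasome subunits Psmb5, Psmb6 and Psmb7 had a median of -0.34 in Grow against Normal and 0.20 in Regress against Normal, with 0 of 3 called in either.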
